A study of Mus musculus with 2 samples.

Results

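The genes described here are 10 genes of the pigment cell: Pmel, Dct, Tyr, Tyrp1, Mlana, Mitf, Sox10, Trpm1, Slc45a2 and Oca2. They were taken by name from the non-control probes of both arrays, and they account for 27 of 56605 probes and 10 of 37325 gene names. Each probe was kept apart, and each of the 27 was printed as 1 spot per array. RNA came from skin tumours that chronic ultraviolet B (UVB) light had raised on the shaved backs of male mice, in 1 sample from P2ry6+/+ animals and 1 from P2ry6-/- animals. P2ry6 encodes a receptor for the nucleotide UDP. The mice of both genotypes were 2 months old when exposure began. They received 180 mJ/cm2 for 10 weeks, then 10 mJ/cm2 more each week until 300 mJ/cm2 was reached in week 22, and that dose was held to week 40. The strain, the deleted part of P2ry6 and the number of tumours or mice in each RNA sample are not given in the sources used here.

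Melanocytes make melanin inside melanosomes and pass these to keratinocytes. In haired mouse skin most of them sit in the bulb of the growing hair follicle. The transcription factors Mitf and Sox10 switch on the pigment programme. Pmel builds the fibrils on which melanin is laid down, Mlana helps to mature the Pmel protein, and Tyr, Tyrp1 and Dct are the enzymes of melanin synthesis. Slc45a2 and Oca2 are melanosomal transporters that set the conditions in which tyrosinase works, and Trpm1 is a cation channel whose gene also carries a microRNA. Sox10 is also expressed in Schwann cells, and Mitf also in mast cells, macrophages and osteoclasts.

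Each genotype had 1 single-colour Agilent array. The slide and the scan were the same for both, per the file headers. With 1 array per genotype no test was possible, no p-value is given, and differences are described by size. The errors that could be measured were technical. Between spots of the same probe the log2 difference had an SD of 0.12 (293 probes), and between different probes of the same gene 0.38 (6731 genes). Only 7 of the probes with several spots lay within the brightness range of the measured pigment probes, where the SD was 0.18. Well above background were 57.8% of non-control spots on the array labelled wild type and 57.9% on the array labelled knockout. The targeted gene went against the labels: the P2ry6 probes read 364 and 137 signal units on the array labelled wild type and 835 and 318 on the array labelled knockout, 2.44-fold and 2.45-fold higher. A probe outside the deleted part would not check the label. The arrays are therefore named by their labels throughout, and every direction rests on those labels. Skin epithelium was present in both samples, since all 14 basal keratinocyte markers, Krt5 and Krt14 among them, were measured on both arrays.

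The enzymes Dct and Tyrp1 and the fibril protein Pmel gave the strongest differences of the set, and all were lower on the array labelled knockout. Dct was 26.8-fold lower at its brighter probe, Tyrp1 at least 24.2-fold lower at its brightest, Pmel 8.40-fold lower, and Mlana 3.86-fold and 3.03-fold lower at its probes. These sizes, the Tyrp1 bound included, hold for the scanner software's background subtraction. They were smaller under another background correction, where the log2 bound of Tyrp1 was −2.54 in place of −4.60. Tyr and Sox10 were above background on the array labelled wild type alone. Mitf differed by less than 2-fold at each of its 4 probes. Trpm1 gave a bright signal at 1 probe of 8, and Slc45a2 and Oca2 gave no level on either array. In RNA of a whole tumour, fewer melanocytes and less of each transcript per melanocyte cannot be told apart.

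The Pmel, Tyrp1 and Trpm1 probes below gave the values above, and their letters show what was read on the array. The Dct probe shown is the dimmer one, which was 1.87-fold lower, and not the brighter one described above. The first 30 bases of each probe are given, apart from Trpm1. There, bases 16 to 45 hold a repeat that is marked in capitals and taken up with its values.
Pmel, A_51_P208145: atctctgatactaggcatagacttaagaag
Dct probe 1, A_66_P128036: acccaacgggacccagccccagatcgccaa
Tyrp1 probe 3, A_55_P1953573: cttatcaaatgttgtatttcatttcaacag
Trpm1 probe 3, A_55_P2043782: aggcaagaagaaaAAGAAGAAGAAGaaaga
Positions of the probes are those of the array files, on mouse build mm9. Exons and untranslated regions of that build were not looked up here. Probes of a gene are numbered by their position in the transcript record that each was designed on.

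**Figure D1:**
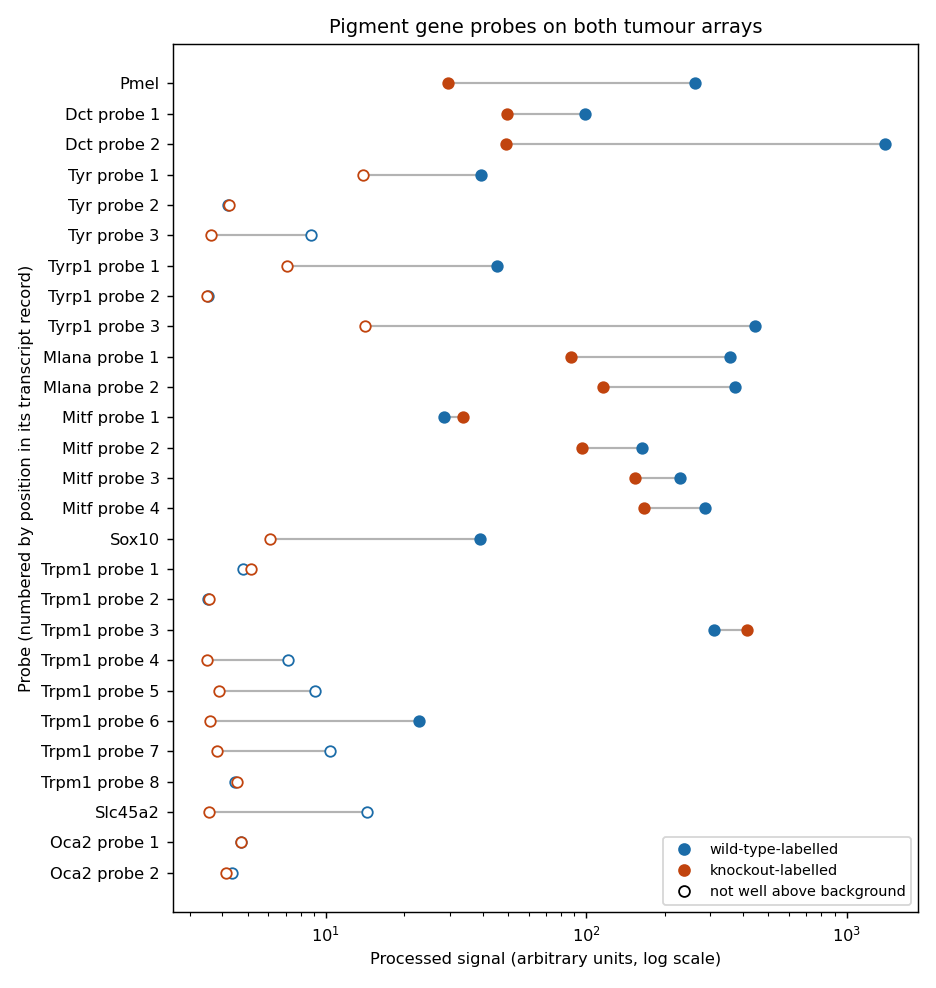
Processed signal (log axis, arbitrary units) of each of the 27 pigment gene probes on the wild-type-labelled (blue) and knockout-labelled (red) array, joined by a grey line. Open circles are not well above background; Dct probe 2 runs from 1399 to 49.3 and Tyrp1 probe 3 from 446 to an open circle at 14.1, while Trpm1 probe 3 runs the other way, from 308 to 413.

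A probe was called measured where the scanner software marked it well above background on both arrays. Its level is the log2 signal relative to the array's 75th percentile (347 signal units on the array labelled wild type and 327 on the array labelled knockout), and its difference is the knockout-labelled minus the wild-type-labelled level. Of the 27 pigment probes, 10 were measured on both arrays, 5 were above background on the array labelled wild type alone, 0 on the array labelled knockout alone and 12 on neither. Of the 10 measured, 4 were at least 2-fold lower on the array labelled knockout, against a background of 4.61% of all 29993 measured probes, and 0 were at least 2-fold higher, against 5.0%. The 4 are 1 of the Dct probes, both Mlana probes and the Pmel probe, so they stand for 3 genes. The median difference over the 10 was −0.80, beside −0.05 over all measured probes. Of the 10, 8 were below 0, as were 54.1% of all measured probes. These shares depend on the scale. Relative to the 8 spike-in control probes every difference reads 0.46 lower, 7 of the 10 pigment probes are at least 2-fold lower, and over all probes 4716 are at least 2-fold lower and 474 higher, in place of 1383 and 1500.

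Of the 15 pigment probes above background on the array labelled wild type, 5 (33.3%) were not above it on the array labelled knockout. Over the whole array this held for 5.22% of such probes, and the reverse for 5.38%. Those shares cover probes of every brightness, and a share for probes of like brightness was not taken. Apart from Tyrp1 probe 3, the 5 read 22.7 to 45.3 on the array labelled wild type, where the lowest signal well above background was 17.7. For probes above background on 1 array alone a bound was computed from the level on the bright array. It was set against the dim array's lowest level well above background, or the dim probe's own level where that was higher. Of the 5 bounds, 4 were at least 2-fold, against a background of 22.7% of the 1651 probes of this kind, and they stand for Tyrp1 (both bounds), Tyr and Sox10.

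**Figure D2:**
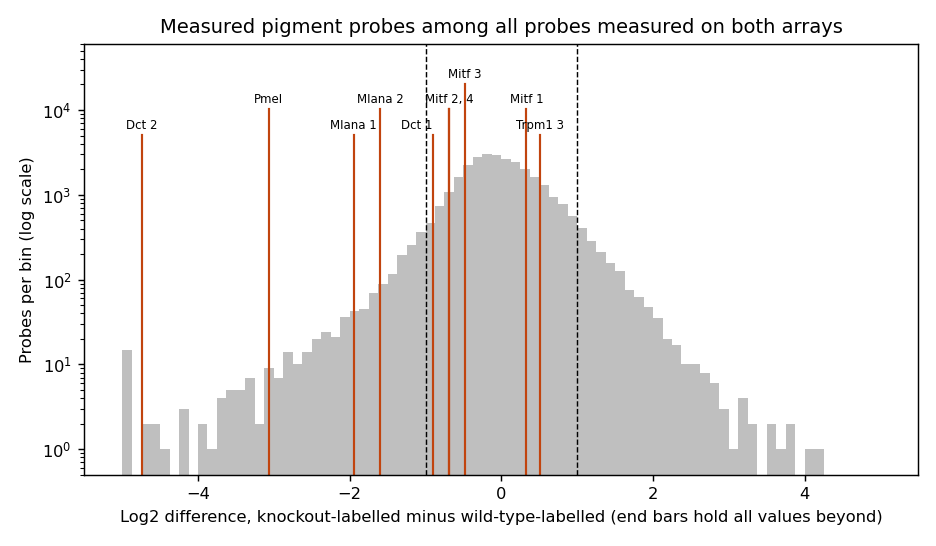
Number of probes (log axis) by difference between the arrays for the 29993 probes measured on both, with the 10 measured pigment probes as red lines and the 2-fold limits dashed; the height of a red line has no meaning and the outermost bars hold all values beyond them. Dct probe 2 at −4.74 and Pmel at −3.07 lie in the sparse lower tail, and the Mitf and Trpm1 probes lie within the 2-fold limits.

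Dct, dopachrome tautomerase, acts on an intermediate of eumelanin synthesis and is an early marker of melanoblasts. Dct probe 2 read 1399 signal units on the array labelled wild type and 49.3 on the array labelled knockout, levels of 2.01 and −2.73. The difference of −4.74 was the 16th lowest of all measured probes. Dct probe 1 (chr14:118442262-118442321, minus strand) lies nearer the start of the same transcript record. It read 98.7 and 49.8 signal units, a difference of −0.90 or 1.87-fold lower, and 5.76% of probes were as low. Both Dct probes were lower on the array labelled knockout, but by very different amounts, so the gene value of −2.82 ± 2.72 (SD, n = 2 probes) is a mean of unlike readings. Their gap of 3.84 log2 units was matched or exceeded in only 3 of the 6731 genes with several measured probes (0.0446%, Dct included), where the median gap was 0.37. Which of the Dct probes reports the gene's true change cannot be told apart from these files.

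Tyrp1, which acts late in eumelanin synthesis and helps to stabilise tyrosinase, had 3 probes. Tyrp1 probe 3 (chr4:80497524-80497583, plus strand) read 446 signal units on the array labelled wild type and 14.1 on the array labelled knockout, where it was not well above background. Before background subtraction its spot read 470 over a local background of 31 on the first and 55.6 over 28 on the second. The bound is at least 24.2-fold lower with the scanner software's background subtraction, and it was smaller under another background correction. Tyrp1 probe 1, designed on a cDNA record that the array file does not place on the genome, read 45.3 and 7.11, at least 2.46-fold lower. Tyrp1 probe 2 read 3.52 and 3.48 and was above background on neither array. Probes 1 and 3 were above background on the array labelled wild type alone. That filter sets the direction of a bound, so their shared direction is not separate support.

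Tyr, tyrosinase, catalyses the first and rate-limiting steps of melanin synthesis. Tyr probe 1 (chr7:94632414-94632473, minus strand) read 39.5 signal units on the array labelled wild type and 13.9, not well above background, on the array labelled knockout, at least 2.14-fold lower. The other Tyr probes read 4.22 and 8.78 on the array labelled wild type and 4.23 and 3.61 on the array labelled knockout, and none of these signals was above background. The lowest signals well above background on the arrays were 17.7 and 17.4, so Tyr was close to the limit even where it was seen.

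Pmel, the amyloid-forming matrix protein of the melanosome, had 1 probe. It lies at chr10:128156029-128156986 on the plus strand, an interval of 958 bases for a probe of 60, so the probe crosses at least one intron and reads spliced RNA. It read 261 signal units on the array labelled wild type and 29.3 on the array labelled knockout, levels of −0.41 and −3.48. The difference of −3.07 was the 51st lowest among the measured probes, and 0.17% of them were as low. The level on the array labelled knockout was close to the lowest level well above background there, −4.23.

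Mlana, also known as MART-1, is a small membrane protein of early melanosomes. Mlana probe 1 (chr19:29782737-29782796) read 356 and 87.2 signal units, a difference of −1.95. Mlana probe 2 (chr19:29782839-29782898) read 373 and 116, a difference of −1.60. The probes are neighbours on the genome and gave nearly the same reading, −1.77 ± 0.25 (SD, n = 2 probes) or 3.42-fold lower, and 0.734% and 1.26% of all measured probes were as low. Mlana is the only pigment gene with several probes whose differences all passed 2-fold.

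Of the regulators, Mitf was measured at all 4 of its probes and Sox10 at its single probe on the array labelled wild type alone. Mitf probe 2 (chr6:97968386-97968445) read 164 and 96.0 signal units, Mitf probe 3 (chr6:97968501-97968560) 229 and 154, and Mitf probe 4 (chr6:97971229-97971288) 285 and 166. Their differences of −0.69, −0.48 and −0.70 are 1.61-fold, 1.40-fold and 1.62-fold lower. They lie close together on the genome. Which Mitf transcripts they read was not looked up here. Mitf probe 1 (chr6:97892054-97892113), from a separate transcript record far upstream, read 28.5 and 33.7, a difference of 0.33 that turned to −0.13 on the spike-in scale. The gene value was −0.38 ± 0.49 (SD, n = 4 probes), with probes on both sides of 0. Sox10 (chr15:78985343-78985402, minus strand) read 39.2 and 6.10 and was at least 2.12-fold lower.

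Trpm1 was the exception among the bright pigment probes. Its probe 3 (chr7:71371607-71371666) read 308 signal units on the array labelled wild type and 413 on the array labelled knockout, a difference of 0.51 or 1.42-fold higher, which fell to 0.05 on the spike-in scale. The other 7 probes of the gene did not share this signal. Trpm1 probe 6 (chr7:71369544-71369603) was above background on the array labelled wild type alone, at 22.7 against 3.57 signal units, at least 1.23-fold lower, and the other 6 were above background on neither array, at 3.50 to 10.4. The bright probe holds the run AAGAAGAAGAAG shown above. That run occurs in 34 of 56594 probes (0.0601%). Of these, 33 were measured on both arrays, as were 29993 of the 56594 probes as a whole. The median difference of the 33 was 0.61, beside −0.05 over all measured probes. Of the 33, 2 were at least 2-fold higher and 0 lower, against 5.0% and 4.61% of all measured probes. Whether the repeat gives the signal was not tested, and without this probe the median over the 9 measured pigment probes was −0.90.

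The transporters Slc45a2 and Oca2 gave no level. Slc45a2 (chr15:10957993-10958052) read 14.4 signal units on the array labelled wild type and 3.56 on the array labelled knockout, and the Oca2 probes read 4.72 and 4.38 against 4.73 and 4.13. All 12 pigment probes above background on neither array read between 3.48 and 14.4. Before scaling, 7 of them were brighter on the array labelled wild type, some by very little, as Tyrp1 probe 2 at 3.52 against 3.48. Values near background are replaced by surrogates, and the share over all such probes was not taken. A difference in Slc45a2 or Oca2 was not detectable at this signal.

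The size of the differences, but not their direction, depended on how background was treated. With normexp correction, which adds an offset of 50 and so draws dim probes together, Dct probe 2 read −3.69, Pmel −1.71 and the Mlana probes −1.46 and −1.28, and the same 4 probes passed 2-fold. The bound of Tyrp1 probe 3 was then −2.54, and those of Tyr (−0.34), Sox10 (−0.32) and Tyrp1 probe 1 (−0.30) no longer reached 2-fold. On the spike-in scale Mitf probes 2 and 4 and Dct probe 1 also passed 2-fold, at −1.15, −1.16 and −1.36.

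**Figure D3:**
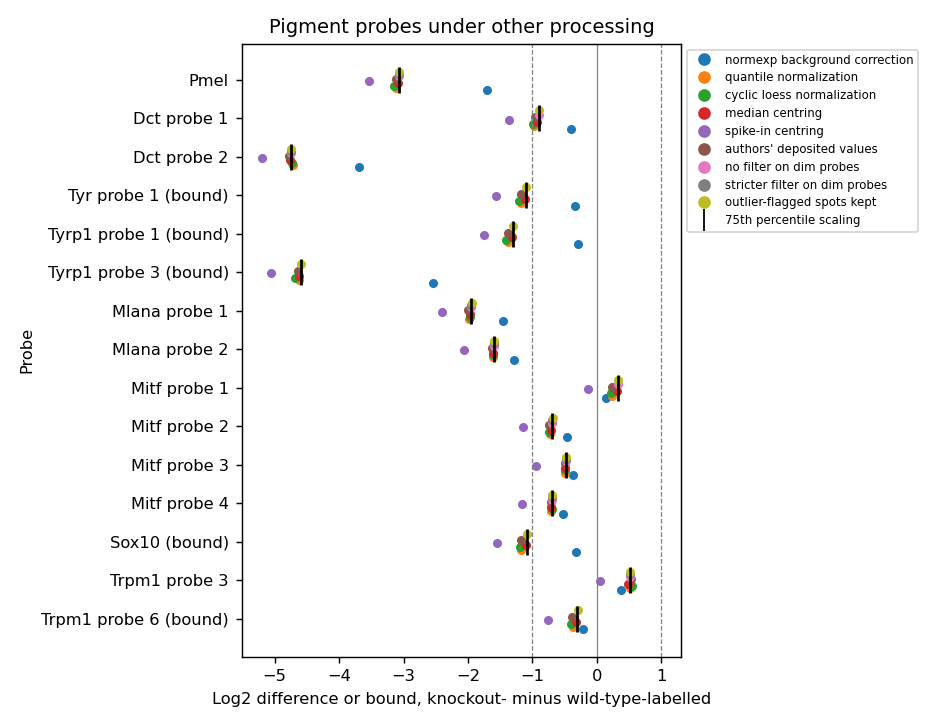
Log2 difference, or bound, of each pigment probe under each processing alternative (coloured points) and under the scaling used in the text (black bar), with 0 as a solid line and the 2-fold limits dashed. The normexp points lie nearer 0 and the spike-in points further to the left than the rest; Mitf probe 1 is the only probe whose points lie on both sides of 0.

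The promoters of the pigment genes were searched for elements through which melanocyte regulators are known to act. RefSeq promoters on build GRCm38.p6, from 250 bases before to 50 after each start site, were at hand for 6 of the 10 genes: Dct, Tyr, Tyrp1, Mitf, Trpm1 and Oca2, with 9 promoters in all. The 7-letter element TCATGTG, which contains the core E-box CATGTG, is a known binding sequence of Mitf. In the promoters of Tyr and Tyrp1 it lies within the same 11 letters, AGTCATGTGCT, the M-box through which Mitf is known to act on this gene family. The M-box was read here as the stretch that both promoters share, and the matches of the 3 are nested. Only exact matches were counted. The Dct copy of the 7-letter element at −151 lies in a stretch that differs from these 11 letters in the first letter only. Both strands were searched, in 32851 promoters. The promoters of Tyr, Tyrp1, Dct and Mitf start 3 are shown because Tyr and Tyrp1 hold the M-box, Dct holds 2 copies of the 7-letter element, and Mitf start 3 holds the cyclic AMP response element through which melanocortin signalling is known to reach Mitf. Capitals mark these matches.
Tyr, chr7:87493463-87493762, minus strand: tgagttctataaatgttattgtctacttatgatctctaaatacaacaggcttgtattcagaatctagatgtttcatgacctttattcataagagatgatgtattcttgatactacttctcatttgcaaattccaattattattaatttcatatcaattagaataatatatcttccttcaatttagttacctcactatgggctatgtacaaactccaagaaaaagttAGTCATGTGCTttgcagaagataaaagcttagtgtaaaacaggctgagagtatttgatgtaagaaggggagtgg
Tyrp1, chr4:80833963-80834262, plus strand: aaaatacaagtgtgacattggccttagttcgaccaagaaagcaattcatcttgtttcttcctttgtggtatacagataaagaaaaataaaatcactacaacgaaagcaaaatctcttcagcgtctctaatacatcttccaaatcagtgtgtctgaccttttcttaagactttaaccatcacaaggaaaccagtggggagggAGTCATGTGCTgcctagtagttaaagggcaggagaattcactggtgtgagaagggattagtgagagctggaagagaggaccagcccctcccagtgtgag
Dct, chr14:118052197-118052496, minus strand: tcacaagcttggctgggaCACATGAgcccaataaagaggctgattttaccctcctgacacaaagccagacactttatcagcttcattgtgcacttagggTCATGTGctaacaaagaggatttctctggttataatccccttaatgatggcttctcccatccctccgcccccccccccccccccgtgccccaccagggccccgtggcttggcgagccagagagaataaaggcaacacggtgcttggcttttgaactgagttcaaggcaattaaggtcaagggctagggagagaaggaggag
Mitf start 3, chr6:97991533-97991832, plus strand: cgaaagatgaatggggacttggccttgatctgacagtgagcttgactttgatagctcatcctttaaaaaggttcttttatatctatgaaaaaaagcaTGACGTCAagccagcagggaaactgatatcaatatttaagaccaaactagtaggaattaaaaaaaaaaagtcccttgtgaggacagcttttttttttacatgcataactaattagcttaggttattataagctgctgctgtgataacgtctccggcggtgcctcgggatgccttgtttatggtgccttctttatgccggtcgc

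The full M-box was found in 7 of the 32851 promoters (0.0213%), among them, by construction, Tyr, where it begins 24 bases before the start site, and Tyrp1, 49 bases before it. The 5 others belong to the complement gene C1qb and to the predicted genes Gm33372, Gm34960, Gm39250 and Gm40009. TCATGTG was found in 3.77% of promoters and in those of Tyr, Tyrp1, Dct (at −151, and at −232 on the other strand) and Trpm1 start 1 (at −142). CATGTG, present in 14.2% of promoters, also occurred in Oca2 and Trpm1 start 2. The palindromic E-box CACGTG (7.15%) occurred in Trpm1 start 2 alone, and the cyclic AMP response element TGACGTCA (1.79%) in Mitf start 3 alone, 153 bases before the start. These matches are descriptions of sequence, and no binding was measured here.

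**Figure D4:**
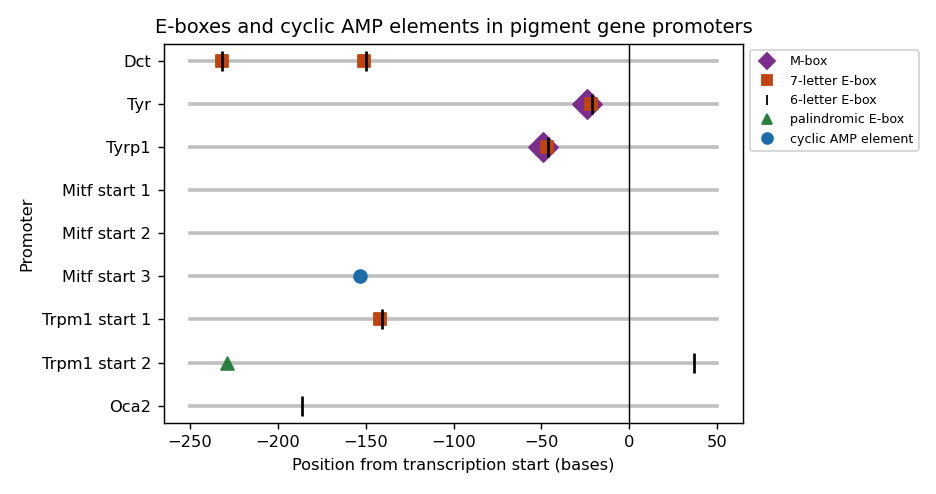
Position of each motif match, in bases from the transcription start at 0, in the 9 promoters of 6 pigment genes; grey lines span the searched window from −250 to 50. The M-box diamonds of Tyr and Tyrp1 lie at −24 and −49, and the first and second start of Mitf have no match.

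In the wider machinery of pigment organelles no measured gene reached 2-fold on the scale used here. Of 32 genes for the assembly, acidification and transport of melanosomes and related organelles, 28 were measured on both arrays, and 0 were at least 2-fold lower, against 5.04% of all 19873 measured genes, and 0 higher, against 4.82%. Their median was −0.13, beside −0.06 over all measured genes. They ran from the proton pump subunit Atp6ap2 (−0.997) to the small GTPase Rab32 (0.93). The number at least 2-fold lower became 1 with median centring and 4 on the spike-in scale. On that scale 4716 of all 29993 measured probes were at least 2-fold lower. With no filter on dim probes 4 of 32 were at least 2-fold lower, beside 3353 of all 56594 probes. With quantile or loess normalization 1 was at least 2-fold higher. Many of the list also serve lysosomes of other cells. Gpnmb, a relative of Pmel that macrophages also express, differed by −0.02. The 2 members most restricted to pigment cells were near the limit: Slc24a5, a melanosomal ion exchanger, was above background on the array labelled wild type alone, at least 1.37-fold lower, and Gpr143, a melanosomal receptor, gave no level.

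Among 23 receptors and transcription factors of the melanocyte lineage, 18 were measured. Of these, 0 were at least 2-fold lower on the array labelled knockout, against 5.04% of all measured genes, and 3 higher, against 4.82%. Their median of 0.15 turned to −0.31 on the spike-in scale and was −0.02 with the stricter filter on dim probes. The number higher was 1 under normexp correction and 0 on the spike-in scale. The 3 were the transcription factor Tfap2b (1.46), the endothelin receptor Ednrb (1.38) and the Wnt effector Lef1 (1.13), all of which other skin cells express too. Kit, the stem cell factor receptor of melanocytes and mast cells, differed by 0.69 ± 0.63 (SD, n = 2 probes). Mc1r, the melanocortin receptor that drives eumelanin synthesis, was above background on the array labelled wild type alone, at least 2.22-fold lower, and so were Irf4 (at least 1.58-fold) and Pax3 (at least 1.49-fold), which act with Mitf and Sox10. Of all 1089 genes above background on that array alone, 24.4% had a bound of 2-fold or more.

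Signals that skin cells send to melanocytes were mixed. Of 28 such genes 27 had a probe and 17 were measured, with 5 at least 2-fold lower, 1 higher (over all measured genes 5.04% and 4.82%) and a median of −0.47. The number lower was 2 under normexp correction, where 796 of all 29993 measured probes were lower. With no filter on dim probes the median was −0.03. Wnt3a, a ligand that promotes melanoblast fate, differed by −1.94, the prostaglandin synthase Ptgs2 by −1.30, Foxn1, a keratinocyte factor that directs pigment transfer, by −1.25, and the endothelin Edn2 and the neuregulin Nrg1 by −1.03 each. The endothelin Edn1, which keratinocytes release after UVB, was higher by 1.14, and the growth factor Fgf2, above background on the array labelled knockout alone, was at least 2.36-fold higher (22.6% of such genes had a bound of 2-fold or more). Kitl, the ligand of Kit, differed by −0.08 ± 0.49 (SD, n = 3 probes). Edn3 and Pomc gave no level, and Asip had no probe under that name.

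Markers of other cells that share genes with melanocytes, or house them, also differed between the arrays. On the scale used here each of their counts stands beside 5.04% lower and 4.82% higher over all measured genes. Their counts under other processing stand beside other shares. Of all 29993 measured probes, 4716 were at least 2-fold lower and 474 higher on the spike-in scale. Under normexp correction 796 were at least 2-fold lower and 556 higher. Of 28 hair bulb and hair shaft genes 18 were measured, 6 of them at least 2-fold lower and 1 higher, with a median of −0.63. The number lower was 2 under normexp correction and 10 on the spike-in scale. With no filter on dim probes it was 13 of 28, beside 3353 of all 56594 probes. The 6 were the inner root sheath keratin Krt71 (−1.89), Foxn1 (−1.25), the hair keratins Krt84 (−1.12), Krt86 (−1.12) and Krt31 (−1.11) and trichohyalin, Tchh (−1.06), and the gene that was higher was Lef1 (1.13). A further 8 were above background on the array labelled wild type alone and 0 on the other alone. Over all genes these numbers were 1089 and 1012. Of the 8, Krt25 was at least 7.14-fold, Krt33a at least 4.004-fold and Krt36 at least 2.21-fold lower, and the rest had bounds under 2-fold. Of the 1089 genes 24.4% had a bound of 2-fold or more. For the 18 hair genes measured on both arrays, a summed level was taken as the sum of linear signals relative to the 75th percentile. It was 54.7 on the array labelled wild type and 46.1 on the array labelled knockout. Gata3, also expressed in other epidermal cells, made up 25.4 and 24.97 of these, and the rest 29.2 and 21.1. The part of hair follicle content in the pigment gene differences was not tested.

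Of 12 mast cell markers 10 were measured, with 5 at least 2-fold lower, 1 higher and a median of −0.87. Under normexp correction 3 were lower and the median was −0.34. The proteases Mcpt4 (−2.53), Cma1 (−2.47) and Cpa3 (−2.22) led them, followed by the interleukin-33 receptor Il1rl1 (−1.70) and the IgE receptor subunit Fcer1a (−1.07). The histamine-forming enzyme Hdc was higher by 1.03, and the summed level was 14.0 against 7.52. Mcpt4 made up 6.82 and 1.18 of these sums, and the rest 7.14 and 6.34. Of 20 Schwann and glial markers 15 were measured, with 3 at least 2-fold lower, 1 higher and a median of −0.41. On the spike-in scale 7 were lower, and the median ran from −0.87 there to −0.15 under normexp correction. The myelin protein Mbp differed by −2.21, the factor Pou3f1 by −1.46 and the adhesion protein L1cam by −1.32, while S100b, also found in other cells, differed by 2.60, and Gfap, Cdh19, Foxd3, Gfra3 and Scn7a gave no level. The summed level was 48.8 against 47.7, of which Egr2, an immediate early gene in other cells too, made up 19.7 and 33.2 and the rest 29.2 and 14.5. The part of either cell type in the differences of Mitf and Sox10 was not tested.

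Macrophage markers lay the other way: of 15 measured among 18, 9 were at least 2-fold higher and 1 lower, with a median of 1.103 and a summed level of 37.1 against 72.1. Under normexp correction 5 were higher and on the spike-in scale 3. Cx3cr1 (2.78), Aif1 (1.79), Fcgr1 (1.71), Mertk (1.35), C1qb (1.28) and C1qc (1.23) led them. The mannose receptor Mrc1 differed by −1.07, and Cd163, above background on the array labelled wild type alone, was at least 1.66-fold lower. Of 10 osteoclast genes, several of them direct Mitf targets in that cell, 9 were measured, with 0 at least 2-fold lower and 2 higher, Dcstamp (1.54) and Ocstamp (1.02), and a median of 0.04 that turned to −0.42 on the spike-in scale. The 14 basal keratinocyte markers had a median of −0.06, with 0 at least 2-fold lower and 1 higher, Krt5 (1.66).

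**Figure D5:**
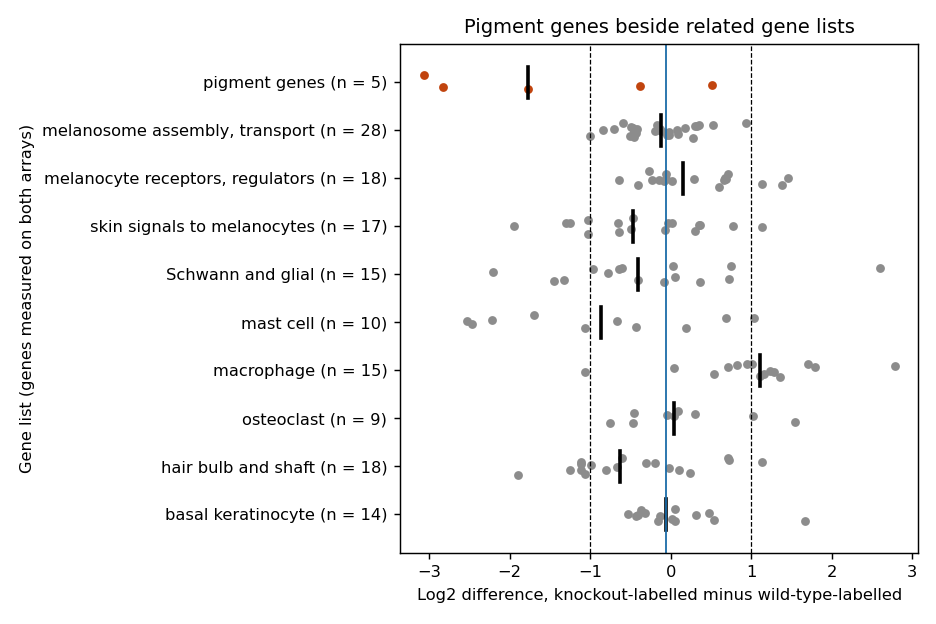
Log2 difference of each gene measured on both arrays (points, mean over its probes) for the pigment genes (red) and 9 related lists (grey), with each list's median as a black bar, the median of all measured genes as a blue line and the 2-fold limits dashed. The 5 measured pigment genes have a median of −1.77, the 28 melanosome assembly and transport genes −0.13 and the macrophage markers 1.103; genes above background on one array alone are not drawn.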

How the data were processed

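Per the submitters' processing notes, the authors extracted spot intensities from both arrays with Agilent Feature Extraction 10.7.1.1. Per the file headers, the processed intensity is background-subtracted, with values near background replaced by surrogates, and the software's marks record spots well above background. Each array had 59305 non-control spots, 0 of them saturated. Spots marked as outliers (102 and 105) were left out, which removed 11 probes. Values are log2 intensity minus each array's 75th percentile. The authors also deposited log2 values whose sorted columns differed by at most 0.00104, as quantile normalization gives. How they were made is not stated in the labels or headers.

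Names were looked up through RefSeq accessions for 32994 probes, and no pigment probe changed name. A gene is the mean over its measured probes. Every pigment probe is reported, except that the sequence and position of 1 Dct probe are not reported here. From each wider list those past 2-fold, or with such a bound, are named, up to 6 in each direction by size, with a few named whatever their value. Atp6ap2, Rab32, Cd163, Gata3, Egr2 and, under the bounds, Irf4 and Pax3 fall outside this rule and were chosen after their values were seen. Krt14 is outside it too, as are the Schwann and glial markers without a level, Gfap, Cdh19, Foxd3, Gfra3 and Scn7a. The members and lists were chosen with earlier results of these data known. The calculation of differences and counts was tested on simulated data. Alternatives were normexp correction (offset 50), quantile, loess, median and spike-in scaling, the authors' values, no filter or a stricter filter on dim probes, outlier spots kept, a 1.5-fold threshold and the brightest probe per gene. Python 3.11.15, pandas 2.3.3, R 4.3.3 and limma 3.58.1 were used.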

Additional observations from a re-analysis of the deposited data

How the results depend on the processing

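With 1 array per genotype the spread between animals is unknown, and dim probes have only bounds. No paired analysis was possible because each genotype has 1 array. No alternative turned the difference of a pigment probe that passed 2-fold, and single genes of the wider lists were not followed through the alternatives. The count of 4 pigment probes at least 2-fold lower and 0 higher was also obtained under normexp, quantile, loess and median scaling, with the authors' values, with the stricter filter and with outlier spots kept. On the spike-in scale 7 pigment probes passed 2-fold, with a median of −1.26, and over all probes 5190 passed, 4716 lower and 474 higher. With no filter on dim probes 13 of 27 pigment probes passed, and 7350 of all probes, 3353 lower and 3997 higher. With a 1.5-fold threshold 7 pigment probes passed, and 8283 of all probes, 4130 lower and 4153 higher. Normexp correction left 1352 of all probes in place of 2883, 796 lower and 556 higher, and the stricter filter left 1084 lower and 909 higher, of 22243. Taking the brightest probe of each of the 5 measured genes gave a median of −1.60, in place of −1.77 with each gene as the mean over its probes. The lists' medians kept their direction under all 10 alternatives except those of the receptor and regulator list (−0.31 to 0.23), the osteoclast list (−0.42 to 0.28) and the basal keratinocyte list (−0.52 to 0.17). Of the other values compared, 314 moved little and 88 moved further.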
